A study of Mus musculus with 8 samples.

Results

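The 10 genes described here encode inhibitory G protein-coupled receptors of the mouse other than the opioid receptors. They are the noradrenaline receptors Adra2a and Adra2c, the muscarinic acetylcholine receptor Chrm2, the cannabinoid receptor Cnr1, the GABA-B subunits Gabbr1 and Gabbr2, the neuropeptide Y receptors Npy1r and Npy2r, the somatostatin receptor Sstr2 and the adenosine receptor Adora1. They were taken by name from a count table of 53801 genes, in which all 10 were found and all 10 passed the filter on low counts. Levels are given as CPM, the reads of a gene scaled to the total counted reads of its library.

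RNA was sequenced from lumbar dorsal root ganglia of the mouse, the ganglia that hold the cell bodies of sensory neurons with satellite glia, Schwann cells, macrophages and vessels. Per the labels the mice were male C57BL/6J with no age given, and under isoflurane the left L4 spinal nerve was tightly ligated, with lidocaine and bupivacaine given to the muscle after surgery. The injured groups are the left ganglia at days 1, 3 and 7 after ligation, and the contralateral groups are the right ganglia of the same mice at the same days. The no injury groups are the left and the right ganglia of a further pool, also labelled C57BL/6J and male, whose titles add WT. Sham surgery is described in the labels, but no library is labelled as sham. Each of the 8 libraries pooled ganglia L3 to L5 of 3 mice, so an injured-side library also holds 2 ganglia whose nerve was not tied, and there was a single library per side and day. The 3 operated pools therefore served as the replicates of the injured state. Each pool stands for another day, so the spread behind a p-value mixes differences between pools with those between days. In the test of the injured state that spread also takes in the left-right difference of the no injury pool.

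Depth ran from 20488115 to 21652688 counted reads per library. The injury marker Atf3 lay between 464 and 629 CPM on the injured side, between 110 and 167 CPM on the contralateral side and 10.89 and 10.99 CPM without injury, so the contralateral side of operated mice was not at the no injury level. The 2 no injury libraries went against their sex label: Xist, the RNA of the inactive X chromosome, stood at 238 CPM in the left and 191 CPM in the right library and at most at 0.142 CPM in the operated libraries, and Y-linked Kdm5d had 0 reads in both. The contralateral library of day 1 stood apart for Mpo, a gene of marrow cells, at 24.1 CPM against at most 1.83 CPM elsewhere. The fits of the receptors and the counts of calls were repeated without each pool, while the ratios of partners and the nearest patterns are given with all libraries. Of the defining markers of the ganglion, all 22 pan-neuronal genes and all 12 satellite glia genes were detected in every library.

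These receptors couple to G proteins of the Gi/o class. On activation the alpha subunit restrains adenylyl cyclase, while the beta-gamma dimer closes presynaptic calcium channels and opens the inward rectifier potassium channels known as GIRK. In sensory neurons such receptors sit on the soma and on the central terminals in the spinal cord, where they dampen transmitter release, and several are targets of analgesic drugs. Spinal clonidine, baclofen and cannabinoids act through the noradrenaline, GABA-B and cannabinoid receptors of this group.

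The promoter windows of the 5 receptors with the largest changes are shown, among them the noradrenaline receptor genes Adra2a and Adra2c, which moved in opposite directions. Each runs from 250 bases before to 50 bases after a RefSeq start site (GRCm38.p6), 5′ to 3′ on the gene's strand, which is the plus strand for these 5 genes. The Adra2a window is chr19:54045009-54045308, that of Npy1r chr8:66697172-66697471, that of Chrm2 chr6:36387834-36388133, that of Adra2c chr5:35278316-35278615 and that of Sstr2 chr11:113619077-113619376. Capitals mark a match to TGANTCA, the letters bound by AP-1 factors such as Jun with Atf3, or to TGACGTCA, the cyclic AMP response element (CRE).
Adra2a: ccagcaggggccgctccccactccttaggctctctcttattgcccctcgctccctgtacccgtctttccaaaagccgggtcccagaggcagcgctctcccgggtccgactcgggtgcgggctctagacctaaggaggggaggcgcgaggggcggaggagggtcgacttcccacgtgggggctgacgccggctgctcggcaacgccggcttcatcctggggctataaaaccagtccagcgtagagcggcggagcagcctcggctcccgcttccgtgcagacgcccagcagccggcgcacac
Npy1r: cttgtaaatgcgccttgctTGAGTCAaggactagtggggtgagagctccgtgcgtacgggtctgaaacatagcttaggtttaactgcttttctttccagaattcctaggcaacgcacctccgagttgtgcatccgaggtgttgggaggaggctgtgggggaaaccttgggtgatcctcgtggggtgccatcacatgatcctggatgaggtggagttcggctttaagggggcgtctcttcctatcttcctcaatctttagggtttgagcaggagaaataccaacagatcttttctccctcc
Chrm2: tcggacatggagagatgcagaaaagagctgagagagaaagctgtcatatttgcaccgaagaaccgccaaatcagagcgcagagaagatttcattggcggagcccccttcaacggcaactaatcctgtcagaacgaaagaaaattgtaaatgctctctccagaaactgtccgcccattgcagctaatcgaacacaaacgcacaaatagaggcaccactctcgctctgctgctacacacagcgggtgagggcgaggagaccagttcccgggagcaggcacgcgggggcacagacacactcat
Adra2c: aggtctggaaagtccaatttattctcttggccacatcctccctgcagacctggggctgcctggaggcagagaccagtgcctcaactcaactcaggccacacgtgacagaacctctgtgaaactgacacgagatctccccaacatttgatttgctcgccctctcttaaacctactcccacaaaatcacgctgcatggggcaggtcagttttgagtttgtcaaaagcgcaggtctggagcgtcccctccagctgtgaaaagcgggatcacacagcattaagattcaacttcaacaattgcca
Sstr2: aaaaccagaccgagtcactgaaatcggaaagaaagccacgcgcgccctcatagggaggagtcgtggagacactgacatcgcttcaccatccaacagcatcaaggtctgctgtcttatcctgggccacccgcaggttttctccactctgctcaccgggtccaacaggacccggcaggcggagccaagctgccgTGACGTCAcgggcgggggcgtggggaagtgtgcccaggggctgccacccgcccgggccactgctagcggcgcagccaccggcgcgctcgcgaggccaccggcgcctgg

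Both motifs read the same on either strand, so a single search covered both strands, and neither motif contains the other. Among the 13 windows of the 10 receptors, TGANTCA was found in 1 window each of Npy1r and Adora1, and 7.81% of 32851 mouse promoter windows of the same length hold it. In Npy1r it runs from position -231 to -225 relative to the start site. TGACGTCA was found in Sstr2, from position -58 to -51, and 1.79% of all windows hold it. The Adra2a window was richer in G and C, at 68.7% of its bases, than that of Adra2c at 51.3%. The GENCODE annotation, used for gene positions, starts Adra2a at 54044151, Npy1r at 66697192 and Adra2c at 35278319. By it the Adra2a window lies inside the gene, as does most of the Npy1r and Adra2c windows. The Npy1r motif then falls at the gene start and not upstream of it.

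Levels between the receptors were compared as CPM divided by the exon length in kilobases (RPKM). On the injured side the order was Gabbr1 at 67.1 ± 11.1 RPKM (SD, n = 3 pools), Gabbr2 at 31.7 ± 2.1, Adora1 at 21.4 ± 5.6, Npy1r at 19.5 ± 3.8, Npy2r at 12.6 ± 2.0, Cnr1 at 5.59 ± 0.61, Adra2c at 3.10 ± 0.52, Chrm2 at 2.15 ± 0.58, Sstr2 at 2.00 ± 0.55 and Adra2a at 1.85 ± 0.22 RPKM. The order was the same on the contralateral side, from 70.7 ± 4.6 RPKM for Gabbr1 to 1.22 ± 0.11 RPKM for Adra2a. Without injury Sstr2, at 4.86 RPKM, stood above Chrm2, at 4.35 RPKM. Ranges of neighbours overlapped on the injured side for Adora1 with Npy1r and along the run from Adra2c to Chrm2, Sstr2 and Adra2a, and on the contralateral side for Npy1r with Npy2r. The GABA-B subunits were thus the most abundant of the set on either side of the operated mice, and Adra2a had the lowest mean. In the injured library of day 3, however, Adra2a at 2.10 RPKM stood above Chrm2 at 1.75 and Sstr2 at 1.52 RPKM. The exon lengths are those of GENCODE. For Adra2a the 4832 bases include sequence upstream of the RefSeq start, and a shorter transcript would give it a higher RPKM. Whether its last rank holds with that start was not tested.

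Across the 3 injured pools 2 of the 10 receptors rose, Npy1r and Adra2a, and 5 fell, Chrm2, Adra2c, Sstr2, Gabbr2 and Cnr1, while Gabbr1, Npy2r and Adora1 did not pass the test. The test was edgeR's quasi-likelihood test of the injured state over the 8 libraries, blocked by pool, with p-values adjusted by Benjamini-Hochberg over 16244 genes and a threshold of 0.05. With this block the fitted fold change sets the injured against the contralateral side of the same pools. The no injury pool holds no injured library, so it adds to the spread but not to the fold change. In the same test 10.1% of all genes were called higher and 8.02% lower. The median log2 fold change of the 10 receptors was -0.31, beside 0.02 over all genes tested. In bulk ganglia fewer cells of a type and less RNA per cell cannot be told apart. A further fit, without a block, took the no injury libraries as the only controls. They are both sides of the same mice and so no independent replicates, yet that fit enters them singly. In it injury, the sex shown by Xist and the pool cannot be told apart.

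**Figure D1:**
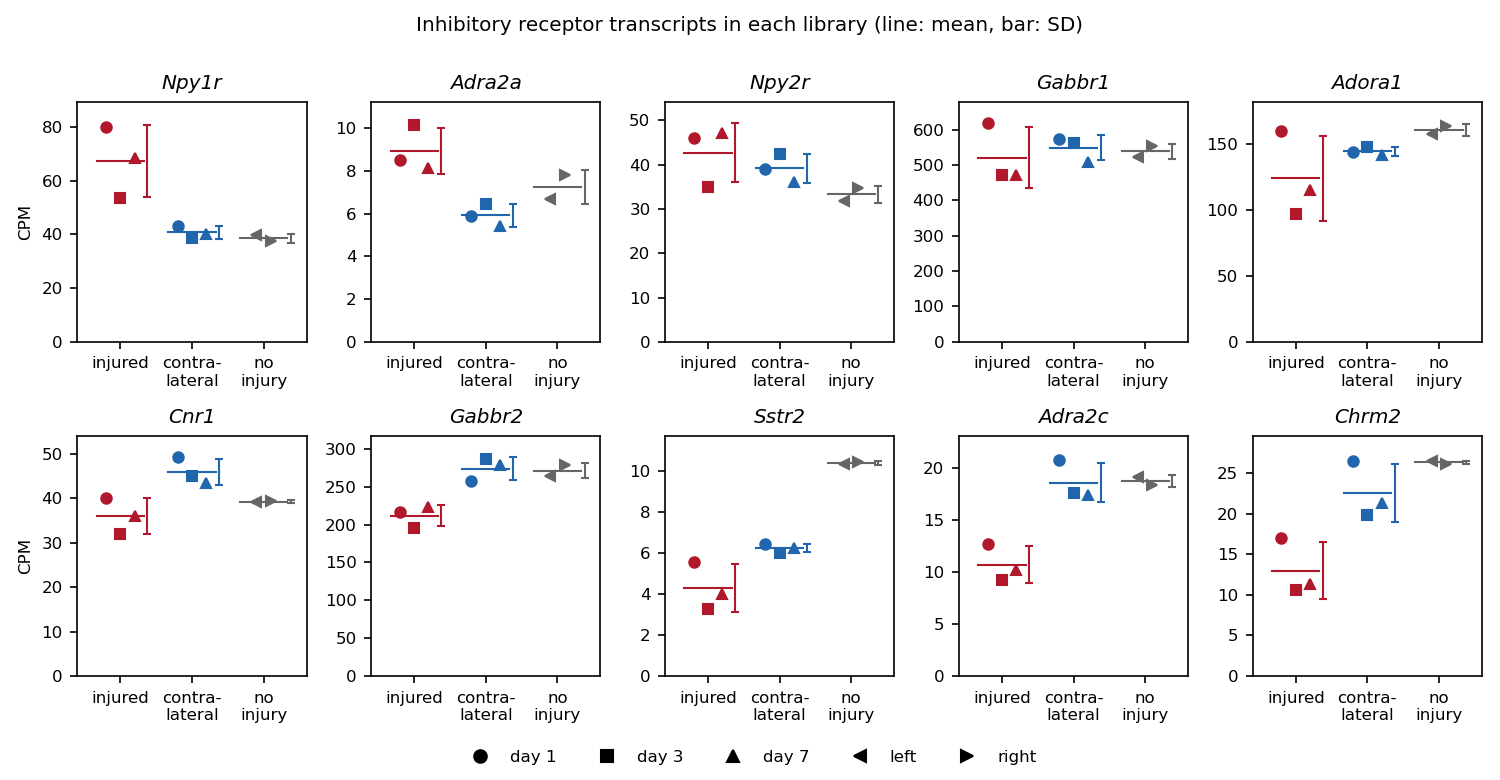
CPM (vertical axes, from 0) of the 10 receptors in every library, with the injured, contralateral and no injury groups from left to right, a symbol per day or side, a line at the group mean and a bar for the SD. The injured libraries of Npy1r and Adra2a lie above the 5 other libraries, and those of Sstr2, Adra2c, Chrm2 and Gabbr2 lie below them.

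Npy1r, the Y1 receptor of neuropeptide Y (chr8:66697192-66706792), showed the largest rise. It reached 80.0, 53.5 and 68.5 CPM in the injured ganglia of days 1, 3 and 7, against 43.3, 38.6 and 40.3 CPM in the contralateral ganglia and 39.6 and 37.4 CPM without injury. Every injured library was above every other library. The fitted rise was 1.63-fold (log2 fold change 0.71 ± 0.09, SE, n = 3 injured pools; edgeR adjusted p = 0.00407), and against the no injury libraries alone the log2 value was 0.81 (edgeR adjusted p = 0.0592). Npy2r, the Y2 receptor, which sits on terminals as an autoreceptor in neurons that release neuropeptide Y, had 45.9, 35 and 47.0 CPM in injured ganglia. Contralateral ganglia had 39.0, 42.4 and 36.0 CPM, and the no injury libraries 31.9 and 34.6 CPM. The groups overlapped, since the injured library of day 3 lay below all contralateral libraries and those of days 1 and 7 above them. The log2 fold change of Npy2r was 0.11 ± 0.14 (edgeR adjusted p = 0.604).

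Adra2a, which encodes the alpha-2A noradrenaline receptor (chr19:54044151-54048982), was the other receptor to rise. It had 8.49, 10.2 and 8.14 CPM in injured ganglia at days 1, 3 and 7, against 5.87, 6.45 and 5.41 CPM in contralateral ganglia and 6.70 and 7.80 CPM without injury. The injured libraries lay above the others, but the right no injury library came within a few reads of the injured one of day 7, with 169 and 172 reads. The fitted rise was 1.503-fold (log2 0.59 ± 0.12, SE; edgeR adjusted p = 0.0162). Against the no injury libraries alone the log2 value was 0.30 (edgeR adjusted p = 0.253), and without the day 3 or the day 7 pool it was 0.58 in either case, with an edgeR adjusted p of 0.0652 and 0.0924.

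Adra2c, the alpha-2C receptor gene (chr5:35278319-35281763), went the other way. It fell to 12.7, 9.22 and 10.2 CPM in injured ganglia at days 1, 3 and 7, against 20.8, 17.6 and 17.4 CPM in contralateral ganglia and 19.2 and 18.3 CPM without injury. No injured library reached the lowest of the 5 others. The fitted injured level was 57.1% of the contralateral one (log2 -0.81 ± 0.09, SE; edgeR adjusted p = 0.00226). Its contralateral level did not stand apart from the no injury level, with a log2 difference of -0.0038 ± 0.14 (SE; edgeR adjusted p = 0.998).

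Chrm2 encodes the M2 muscarinic receptor, through which acetylcholine lowers the excitability of nociceptors (chr6:36388084-36528414). It fell to 17.0, 10.6 and 11.3 CPM in injured ganglia, against 26.6, 19.8 and 21.3 CPM in contralateral ganglia and 26.5 and 26.2 CPM without injury. The injured libraries lay below all others, and at days 3 and 7 the contralateral libraries lay below the no injury ones. The fitted injured level was 56.7% of the contralateral one (log2 -0.82 ± 0.09, SE; edgeR adjusted p = 0.00226). Npy1r, Adra2c and Chrm2 kept their calls when any single pool was left out, but against the no injury libraries alone Chrm2 was not called (log2 -1.01, edgeR adjusted p = 0.0554), nor was Npy1r. The long noncoding gene 9330158H04Rik lies on the opposite strand and shares exon bases with Chrm2. It had at most 0.976 CPM, and its reads cannot be told apart from those of Chrm2 where counting ignored strand, which the labels leave unstated.

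Sstr2 encodes the somatostatin receptor that octreotide binds (chr11:113619342-113626028). It had 114, 69 and 85 reads in injured ganglia, which is 5.56, 3.26 and 4.02 CPM. Contralateral ganglia had 6.43, 6.03 and 6.26 CPM, and the no injury libraries 10.4 and 10.5 CPM. The 3 groups did not overlap, with the injured libraries lowest and the no injury libraries highest. Between contralateral and no injury libraries, however, 17.9% of all genes tested were higher and 19.5% lower without overlap. Adra2a and Adora1 were also lower without overlap there, and Cnr1 and Npy2r higher. The fitted injured level was 67.3% of the contralateral one (log2 -0.57 ± 0.16, SE; edgeR adjusted p = 0.0452), close to the threshold. Without the day 3 or the day 7 pool the log2 value was -0.40 and -0.54, with an edgeR adjusted p of 0.182 and 0.188. Without the no injury pool the log2 value stayed at -0.57 by design (edgeR adjusted p = 0.107). Against the no injury libraries alone it was -1.27 (edgeR adjusted p = 0.0385). The step between the contralateral and the no injury libraries was -0.73 ± 0.16 (log2; edgeR adjusted p = 0.186), and the counts of that comparison are given with the contralateral side.

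Cnr1, the CB1 cannabinoid receptor gene (chr4:33924593-33948831), fell to 40.0, 32.1 and 36.0 CPM in injured ganglia, against 49.2, 44.9 and 43.5 CPM in contralateral ganglia and 39.1 and 39.4 CPM without injury. The injured libraries lay below the contralateral ones but overlapped those without injury. The log2 fold change was -0.36 ± 0.07 (SE; edgeR adjusted p = 0.0148), and -0.12 against the no injury libraries alone (edgeR adjusted p = 0.543). Without the day 3 or the day 7 pool it was -0.27 and -0.40, with an edgeR adjusted p of 0.0608 and 0.0637.

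GABA-B receptors work as a dimer, in which Gabbr1 binds GABA and Gabbr2 carries the contact with the G protein. Gabbr2 (chr4:46662305-46991873) fell to 216, 196 and 223 CPM in injured ganglia at days 1, 3 and 7, against 257, 287 and 279 CPM in contralateral ganglia and 265 and 278 CPM without injury. No injured library overlapped with the others. Its log2 fold change was -0.38 ± 0.08 (SE; edgeR adjusted p = 0.0190). Without the day 3 or the day 7 pool it was -0.27 and -0.41, with an edgeR adjusted p of 0.0683 and 0.0944. Without the no injury pool it stayed at -0.38 by design (edgeR adjusted p = 0.0572). Gabbr1 (chr17:37045966-37075067) had 620, 471 and 471 CPM in injured ganglia, 575, 564 and 508 CPM in contralateral ganglia and 524 and 554 CPM without injury. The injured library of day 1 was the highest of all and those of days 3 and 7 the lowest. The log2 fold change was -0.09 ± 0.09 (edgeR adjusted p = 0.518).

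Adora1, the A1 adenosine receptor gene (chr1:134199223-134235431), had 160, 96.7 and 115 CPM in injured ganglia, 144, 148 and 141 CPM in contralateral ganglia and 157 and 163 CPM without injury. At day 1 the injured library lay within the range of the uninjured sides, and at days 3 and 7 it lay below them. The log2 fold change was -0.25 ± 0.15 (edgeR adjusted p = 0.282), and without the day 1 pool it was -0.48 (edgeR adjusted p = 0.00420). Mybph lies on the opposite strand with shared exon bases and had at most 2.82 CPM.

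By the count of libraries that do not overlap, 2 receptors were higher and 5 lower in the 3 injured than in the 3 contralateral libraries, where 14.7% and 15.7% of all genes tested were. Against all 5 uninjured-side libraries 2 were higher and 4 lower, beside 11.5% and 12.9% of all genes. With a term for left and right in the model, whose estimate rests on the no injury pool, 0 of the 10 receptors were called by edgeR, at log2 values of 0.64 for Npy1r, 0.82 for Adra2a, -0.86 for Adra2c and -0.82 for Chrm2, and 0.0369% of all genes were called higher and 0.0% lower. With the no injury libraries as the only controls 0 receptors were higher and 2 lower, Adra2c and Sstr2, beside 4.29% and 2.7% of genes. Those controls share mice, and their sex and pool cannot be told apart from the lack of injury. Leaving out the day 1, the day 3, the day 7 or the no injury pool, 2, 1, 1 and 2 receptors were higher, beside 14.5%, 3.97%, 2.9% and 4.76% of genes, and 6, 2, 2 and 3 were lower, beside 13.9%, 2.04%, 0.952% and 2.8%. All 7 calls held with DESeq2's size factors (9.82% of genes higher, 8.35% lower) and with no filter on low counts (5.77% and 5.03%). Of the 7, 6 held with no block (9.59% and 8.27%), with DESeq2 in place of edgeR (9.84% and 8.68%) and under limma-voom (10.5% and 7.65%).

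The ratio of the partners within a family was next taken in each library from the levels per kilobase of exon, for 3 pairs chosen after their values were seen. Adra2a over Adra2c was 0.477, 0.786 and 0.570 in injured ganglia at days 1, 3 and 7, and between 0.201 and 0.304 in the 5 uninjured-side libraries. That is a 2.44-fold higher ratio. The ratios are given without a test, since the libraries share mice. Npy1r over Npy2r was 1.71, 1.497 and 1.43 in injured ganglia and between 0.892 and 1.22 on the uninjured sides. Both ratios were higher in 3 of 3 injured libraries than in any other library. Gabbr1 over Gabbr2 was 2.47, 2.07 and 1.82 in injured ganglia and between 1.57 and 1.93 on the uninjured sides, where the groups overlapped. Within each pool all 3 ratios were higher on the injured than on the contralateral side.

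**Figure D2:**
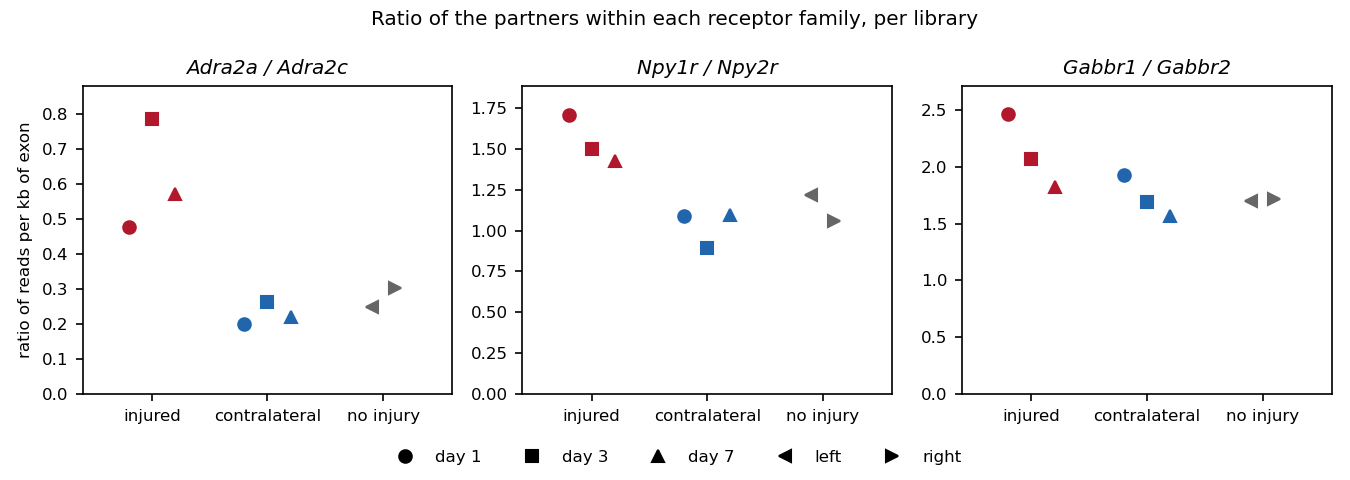
Ratio of the reads per kilobase of exon of 2 receptors of a family (vertical axes, from 0) in each library, with the injured, contralateral and no injury groups from left to right and a symbol per day or side. The injured libraries of Adra2a over Adra2c lie between 0.477 and 0.786, above the others. Per kilobase of GENCODE exon Adra2c exceeds Adra2a in every library. In reads, the injured library of day 3 has 215 for Adra2a and 195 for Adra2c.

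The course over days was described by the ratio of the sides within each pool, without a test at a single day. Adra2a was the steadiest, at log2 ratios of 0.56, 0.61 and 0.58 at days 1, 3 and 7. Adra2c stood at -0.68, -0.96 and -0.77 and Chrm2 at -0.61, -0.94 and -0.91, so the difference in both was already present at day 1. Npy1r was highest at day 1, with 0.92, 0.43 and 0.76. Sstr2 had -0.18 at day 1, with a 95% exact counting interval of -0.55 to 0.19, then -0.91 and -0.63. Left over right in the no injury pool gave values between -0.23, for Adra2a, and 0.07, for Npy1r.

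Across the 10 receptors no trend with the day was called. The test fitted the change of the side ratio per doubling of days (edgeR, pool block), and the lowest unadjusted p of a receptor was 0.114, for Chrm2 (log2 -0.12 ± 0.06 per doubling; edgeR adjusted p = 0.713). Over all genes edgeR called 0.0% in either direction. At an unadjusted p under 0.05 there were 596 genes with a rising and 703 with a falling ratio, 3.67% and 4.33%, and 0 receptors. DESeq2 called 37 and 11 genes, 0.372% and 0.111%.

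**Figure D3:**
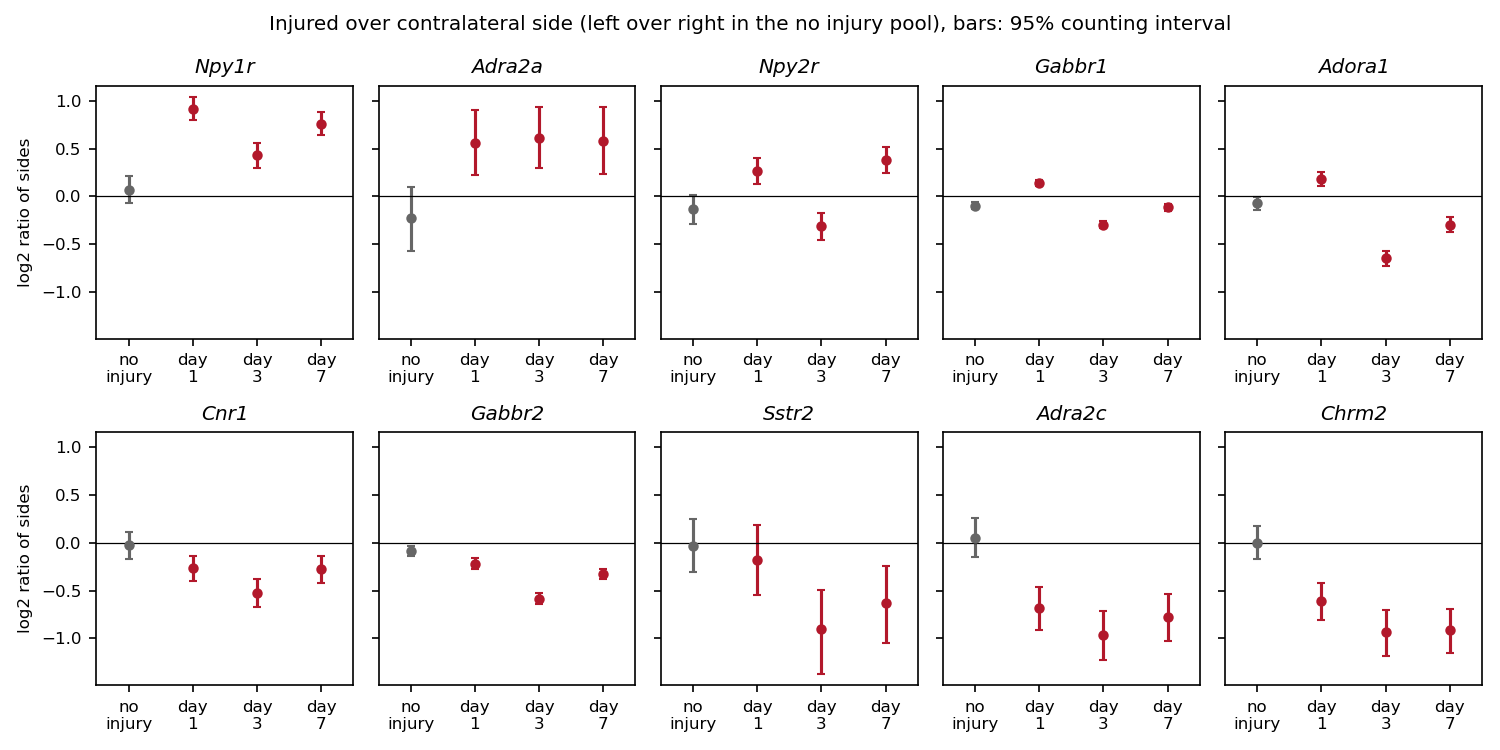
Log2 ratio of the injured over the contralateral side at days 1, 3 and 7, and of the left over the right side in the no injury pool (grey), for each receptor, with exact 95% intervals of the counting error. The ratios of Adra2c, Chrm2, Cnr1, Gabbr2 and Sstr2 lie below 0 at each day, with the interval of Sstr2 at day 1 reaching above 0. Those of Npy1r and Adra2a lie above 0, and those of Npy2r, Gabbr1 and Adora1 cross it.

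The contralateral side was then set against the no injury pool, to see whether it is a neutral reference for these genes. Sstr2 was the receptor with the largest difference, at 6.24 ± 0.20 CPM in contralateral ganglia (SD, n = 3) and 10.4 ± 0.1 CPM without injury (SD, n = 2). In the main test, which summed the no injury libraries to a single sample, edgeR called 0 of the 10 receptors, 0.125% of 16747 genes higher and 0.155% lower. At an unadjusted p under 0.05 there were Sstr2, lower, and Cnr1, higher, beside 4.1% of genes higher and 4.74% lower. Sstr2 passed when the no injury libraries, which are both sides of the same mice and so no independent replicates, entered singly (log2 -0.73, edgeR adjusted p = 0.0200; 1.16% of genes higher, 1.13% lower), with no filter on low counts (log2 -0.75, edgeR adjusted p = 0.0109; 0.986% and 1.51%) and without the contralateral library of day 1 (log2 -0.75, edgeR adjusted p = 0.00286; 2.7% and 3.07%). Without the contralateral library of day 3 or of day 7 no receptor passed, beside 0.078% and 0.163% of genes higher and 0.018% and 0.385% lower. The pools differ in the operation, in the sex shown by Xist and in being separate pools, which cannot be told apart.

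The rest of the signalling chain was followed in 6 lists of 134 genes, of which 115 were tested, 13 rose and 19 fell, beside the 10.1% of all genes called higher and the 8.02% called lower. Of these 32 calls 29, 7, 6 and 15 held without the day 1, the day 3, the day 7 and the no injury pool. In the same runs 14.5%, 3.97%, 2.9% and 4.76% of all genes were called higher. The shares called lower were 13.9%, 2.04%, 0.952% and 2.8%, so calls also became fewer over all genes without the latter 3 pools. The calls of Grm4, Gnai1, Kcnj3 and Rgs20 held in each case. The call of Npy was lost without the day 1, the day 3 or the day 7 pool (edgeR adjusted p = 0.101, 0.218 and 0.317). Among 19 other inhibitory receptors 12 were tested, 0 rose and 4 fell (10.1% and 8.02% of all genes), with a median log2 value of -0.25. The glutamate receptors Grm4, Grm8 and Grm7, which act on terminals, and the galanin receptor Galr1 were the 4 that fell. Grm4 had 22.6, 22.3 and 22.1 CPM in injured ganglia and 30.7, 33.4 and 33.8 CPM in contralateral ganglia (log2 -0.55 ± 0.07; edgeR adjusted p = 0.00365). Galr1 was scarce, at 1.17 CPM in injured and 2.49 CPM in contralateral ganglia on average (log2 -1.10 ± 0.25). Relatives of the 10 receptors differed in level. Chrm4 averaged 4.41 CPM in injured and 5.33 CPM in contralateral ganglia, Sstr1 2.19 and 2.16 CPM, and Sstr4 1.77 and 1.31 CPM. Adra2b averaged 0.333 CPM in injured and 0.751 CPM in contralateral ganglia, Cnr2 0.443 and 0.579 CPM, and Npy5r 0.733 and 0.641 CPM. None of these 6 was called by edgeR, with adjusted p between 0.0752 for Adra2b and 0.993 for Sstr1. Sstr3, Sstr5, Adora3 and Npy4r were at most 0.237, 0.0473, 0.188 and 0.421 CPM in any library and were not tested.

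Among 13 receptors of the same transmitters that couple to stimulatory or Gq proteins, 11 were tested and 0 were called, beside 10.1% of all genes higher and 8.02% lower, with a median of -0.12. The lowest p was that of Adora2a, at 3.81, 3.17 and 2.65 CPM in injured ganglia and 4.98, 4.21 and 4.05 CPM in contralateral ganglia (log2 -0.47 ± 0.15; edgeR adjusted p = 0.0689). Next by p came the adrenaline receptor genes Adrb1 and Adrb3 and the muscarinic Chrm1, at log2 values of -0.77, 0.89 and -0.56 (edgeR adjusted p = 0.0872, 0.227 and 0.233).

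Of 32 genes for the ligands, their synthesis and their removal, 25 were tested, 4 rose and 4 fell (10.1% and 8.02% of all genes), with a median of -0.08. Npy, the ligand of Npy1r and Npy2r, had 1.27, 50.6 and 127 CPM in injured ganglia at days 1, 3 and 7, against 0.892, 14.1 and 18.4 CPM in contralateral ganglia and 0 and 0.831 CPM without injury (log2 2.17 ± 0.47; edgeR adjusted p = 0.0470). Npy1r was at its highest on day 1, when Npy was near its no injury level. Gad2, which makes GABA, rose at very low counts, to at most 1.56 CPM in injured ganglia against at most 0.518 CPM in contralateral ganglia. Entpd2, the extracellular nucleotidase of satellite glia, rose as well (log2 0.42 ± 0.07; edgeR adjusted p = 0.0107). Acpp, the phosphatase that makes adenosine on nociceptors, fell to 475, 270 and 281 CPM in injured ganglia, against 558, 553 and 490 CPM in contralateral ganglia (log2 -0.70 ± 0.16; edgeR adjusted p = 0.0350). Faah, which degrades the endocannabinoid anandamide, fell by 0.37 on the log2 scale, and the cholinesterases Ache and Bche by 0.54 and 0.35.

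Of 18 G protein subunits tested 1 rose and 1 fell (10.1% and 8.02% of all genes), with a median of 0.04. Gnai1 fell to 111, 108 and 107 CPM in injured ganglia, against 145, 134 and 148 CPM in contralateral ganglia (log2 -0.40 ± 0.06; edgeR adjusted p = 0.00505), while Gnai3, another alpha subunit of the same class, rose to 93.6, 113 and 103 CPM in injured ganglia, against 80.0, 81.0 and 90.1 CPM in contralateral ganglia (log2 0.29 ± 0.06; edgeR adjusted p = 0.0187). The gamma subunit genes Gng4 and Gng12 had log2 values of 0.27 and 0.22 (edgeR adjusted p = 0.0536 and 0.0575). Gnao1, the main neuronal alpha subunit of the Go type, had a log2 value of -0.33 ± 0.11 (edgeR adjusted p = 0.0800). Of 15 effectors tested 1 rose and 2 fell (10.1% and 8.02% of all genes), with a median of -0.13. Kcnj3, a GIRK channel subunit, fell to 25.8, 23.1 and 29.6 CPM in injured ganglia, against 37.1, 39.3 and 38.5 CPM in contralateral ganglia (log2 -0.56 ± 0.09; edgeR adjusted p = 0.00717). The scarcer GIRK subunit genes Kcnj6 and Kcnj9 were not called, at log2 values of -0.19 and -0.26 (edgeR adjusted p = 0.735 and 0.447). The adenylyl cyclase Adcy9 fell by 0.31 on the log2 scale, and Adcy4 rose by 0.87, to between 3.83 and 4.93 CPM in injured ganglia against 2.15 to 2.72 CPM in contralateral ganglia. The cyclase Adcy1 was not called (log2 -0.34; edgeR adjusted p = 0.0627). Cacna1b, the pore of the N-type calcium channel that these receptors restrain, had a log2 value of 0.19 ± 0.09 (edgeR adjusted p = 0.165).

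All 34 regulators and receptor partners were tested, of which 7 rose and 8 fell (10.1% and 8.02% of all genes), with a median of -0.12. Rgs20, a member of the family that speeds the turn-off of alpha subunits, showed the largest rise, to 9.96, 19.3 and 19.1 CPM in injured ganglia, against 5.40, 6.17 and 5.79 CPM in contralateral ganglia (log2 1.42 ± 0.16; edgeR adjusted p = 0.00267). Arrb1, a beta-arrestin that uncouples receptors, reached 626, 752 and 791 CPM in injured ganglia, against 493, 524 and 484 CPM in contralateral ganglia (log2 0.52 ± 0.08; edgeR adjusted p = 0.00710). Arrb2, the other beta-arrestin of the list, was not called (log2 0.04 ± 0.07; edgeR adjusted p = 0.701). Gpsm1 and Ric8a, which bind free alpha subunits, rose by 0.46 and 0.31. The receptor kinases split, with Grk6 at 0.38 and Grk2 and Grk3 at -0.34 and -0.56. Of the Rgs genes, Rgs16 and Rgs19 rose too, while Rgs3, Rgs4, Rgs6, Rgs8, Rgs10 and Rgs14 fell, by between 0.35 for Rgs4 and 0.82 for Rgs6 on the log2 scale. None of the 4 GABA-B partners in the list was called. Kctd16 and Kctd8 had log2 values of -0.36 and -0.20 (edgeR adjusted p = 0.0525 and 0.0698), and Kctd12 and Kctd12b had 0.40 and 0.14 (edgeR adjusted p = 0.324 and 0.622).

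**Figure D4:**
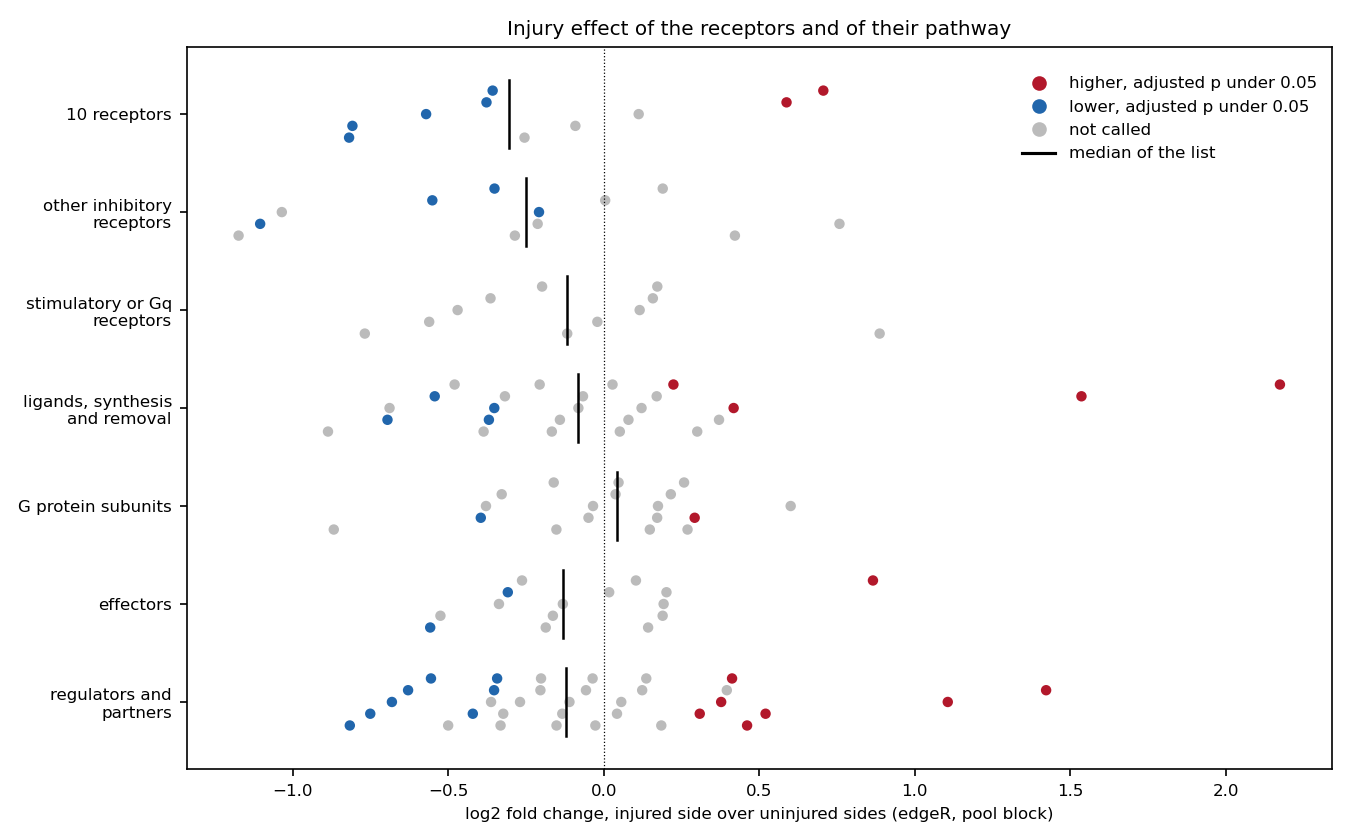
Fitted log2 fold change of the injured over the contralateral side within pools (horizontal axis, labelled uninjured sides). Shown are the 10 receptors and the tested genes of the 6 pathway lists, a point per gene. Points are red where higher and blue where lower at an adjusted p under 0.05, with the list median as a bar. The medians lie between -0.31 for the 10 receptors and 0.04 for the G protein subunits.

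Markers of the ganglion's cell types were counted by the same test, in which 10.1% of all genes rose and 8.02% fell. Of 22 pan-neuronal genes 5 fell and 2 rose, with summed levels of 27620 to 29490 CPM in injured, 29240 to 30310 in contralateral and 27680 to 28200 in no injury libraries. Of 17 nociceptor genes 7 fell and 1 rose, with sums of 3273 to 4986, 4484 to 4881 and 5350 to 5417 CPM, and for this and every further list the 3 ranges are those of the injured, the contralateral and the no injury libraries. Of 16 large-fibre neuron genes 11 fell and 1 rose, with sums of 5253 to 6113, 6587 to 6823 and 6596 to 6721 CPM. Of 14 macrophage genes 3 rose, with sums of 107 to 476, 130 to 224 and 161 to 231 CPM, and of 8 fibroblast genes 5 rose, with sums of 753 to 2096, 503 to 1112 and 1326 to 1495 CPM. Of 12 satellite glia genes 6 rose, with sums of 2985 to 3890, 2777 to 3333 and 3229 to 3336 CPM. In the other lists, 1 of 12 myelinating Schwann cell genes (4774 to 8127, 4600 to 7569 and 5553 to 7656 CPM), 5 of 8 repair Schwann cell genes tested (1415 to 1551, 1150 to 1276 and 1044 to 1108), 1 of 12 endothelial and mural genes (252 to 386, 302 to 350 and 358 to 384) and 3 of 5 central nervous system glia genes tested (55.5 to 70.8, 40.6 to 49.8 and 38.4 to 39.3) rose. Of 3 lymphocyte genes tested 1 fell (sums of 1.80 to 3.31, 1.59 to 9.49 and 3.56 to 5.30 CPM), and no neutrophil and marrow (23.5 to 95.5, 51.6 to 507 and 74.7 to 278), skeletal muscle (20.1 to 149, 18.7 to 129 and 188 to 1367) or erythroid gene (397 to 943, 356 to 962 and 377 to 637) was called. Olig1, Artn, Cd3e, Cd3d, Cd8a, Myh2, Mog, Olig2 and Opalin were among the genes at 0 in at least 1 library. No gene of the neuronal, satellite glia, macrophage and fibroblast lists was at 0 in any library, and their part in the receptor results was not tested, beyond a rescaling of the libraries. With the libraries scaled to the pan-neuronal genes, which moves the median of all genes to a log2 value of 0.15, Npy1r, Adra2a, Chrm2, Adra2c and Gabbr2 stayed called, at 0.84, 0.73, -0.68, -0.67 and -0.24, and 18.2% of genes were higher and 3.61% lower. Cnr1 and Sstr2 were at -0.22 and -0.44 there (edgeR adjusted p = 0.0585 and 0.0812).

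Genes with the most similar pattern over the 8 libraries were sought for each called receptor among 13718 protein-coding genes with a mean of at least 1 CPM, by the root mean square difference of centred log2 CPM. This difference is not scaled to a gene's own spread, so its size is not to be compared between receptors. Gabbr2 was nearest to the lysosomal amino acid transporter gene Slc36a1, at 0.0135 (log2), followed by Lrrc75b at 0.0454 and Nudt16l1 at 0.0503. Adra2c was closest to Oprl1, the nociceptin receptor gene, at 0.0644, followed by Kndc1 at 0.0751 and Unc119 at 0.0770. For Chrm2 the nearest were Vwde at 0.0755, the potassium channel gene Kcna2 at 0.0793 and Dpp10 at 0.0933. Cnr1 was nearest to Pced1b at 0.0402, Tmeff1 at 0.0455 and Mgat4b at 0.0526. For Sstr2 they were Pclo, a scaffold of the presynaptic active zone, at 0.120, Car8 at 0.121 and Kcng3 at 0.130. The receptors that rose had Cybrd1 at 0.0997, Hmgn1 at 0.105 and Zfp202 at 0.121 for Adra2a, and Casp4 at 0.125, Zc3hav1 at 0.141 and Ikzf4 at 0.145 for Npy1r. Of these neighbours Vwde, Kcng3, Zfp202, Pced1b, Ikzf4 and Car8 were not called in the injury test. Their edgeR adjusted p ran from 0.0693 for Vwde to 0.133 for Car8.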

How the data were processed

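RNA of dorsal root ganglia was measured in 8 libraries. The authors deposited whole-number read counts per Ensembl gene, taken as they stand in all 8 columns. The submitters' processing notes name STAR 2.5.4a, cutadapt 1.16, DESeq2, featureCounts 1.6.3 and the build GRCm38, with no role or order. Strand setting, treatment of shared reads and annotation release: not given in the sources used here. Names, positions and exon lengths came from GENCODE M21 (GRCm38), which matched 53706 of 53801 gene IDs. Promoter windows came from RefSeq (GRCm38.p6), which held windows of all 10 receptors.

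The main test was the robust quasi-likelihood test of edgeR 4.0.16 under R 4.3.3 (TMM factors of 0.978 to 1.02, filterByExpr on the injured state with a minimum count of 10), with the pool as a block for the injury effect (3 residual degrees of freedom) and the time trend (2), and the summed no injury libraries for the contralateral comparison (2). The pool pairs the sides because each mouse was its own control. The correlation between both sides of a pool, after removing state means, was 0.249, -0.0618 and 0.356 at days 1, 3 and 7. CPM used total counts, and log2 ratios of sides used TMM-scaled CPM with a prior count of 2. Intervals are exact binomial at 95% on read counts, which takes each read as independent, and they leave out all but counting error. No source names molecular identifiers, so whether the reads are independent molecules is not known. A floor of 3 reads equals 0.14 CPM.

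The members and the lists were chosen with earlier results of these data known. Named were all 10 receptors, up to 4 genes with the lowest p in each of 6 pathway lists and the 3 nearest patterns of each called receptor. The other called list genes that appear, the near relatives of the receptors, Gnao1, Cacna1b, Kcnj6, Kcnj9, Arrb2, the Kctd genes and the library check genes were named after their values were seen. Some genes of the lists are counted but not reported here by name. The 14 marker lists covered pan-neuronal, nociceptor, large-fibre neuron, satellite glia, macrophage and fibroblast genes and those of myelinating and repair Schwann cells, lymphocytes, neutrophils and marrow, endothelial and mural cells, skeletal muscle, central nervous system glia and erythroid cells. The alternatives were no block, a side term, other controls, other scalings, DESeq2 1.42.0, limma-voom 3.58.1, no filter, and leaving out each pool. The scripts were tested on simulated data. There, with 50 changes planted at each fold, the injury fit recovered 60% of 1.5-fold and 74% of 2-fold changes. At 1.5, 2, 4 and 8-fold it recovered 30, 37, 44 and 49 genes, and it called 19 genes without a planted change. The contralateral fit recovered fewer at each fold, with 14, 35, 41 and 45 genes, and called 32 without a planted change. The trend fit recovered 29, 38, 47 and 48 genes and called 24 without a planted change. In each fit such false calls were a larger share of all calls than the threshold on adjusted p allows for.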

Additional observations from a re-analysis of the deposited data

Results flagged for a closer look

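For 3 receptors the ratio of the sides had opposite signs at different days, each with an exact 95% counting interval clear of 0. Gabbr1 had a log2 ratio of the injured over the contralateral side of 0.14 at day 1, -0.30 at day 3 and -0.12 at day 7. Npy2r had 0.27 at day 1, -0.31 at day 3 and 0.38 at day 7. Adora1 had 0.18 at day 1, -0.65 at day 3 and -0.30 at day 7. With 1 library per side and day these differences between days were not tested singly, and the trend per doubling of days was not called for any of the 3 (edgeR adjusted p = 0.784 for Gabbr1, 0.988 for Npy2r and 0.748 for Adora1). The left over right ratio without injury was -0.10 for Gabbr1, -0.13 for Npy2r and -0.07 for Adora1, and its counting interval was also clear of 0 for Gabbr1 and Adora1. The intervals cover counting error only and not the difference between libraries.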

How the results depend on the processing

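The 7 receptors called in the injury effect kept their direction under each alternative run. Leaving out the no injury pool could not change a direction, since that pool holds no injured library. All 7 calls held with DESeq2's size factors in edgeR and with no filter on low counts. With side as a further term none was called by edgeR: Adra2a was at 0.82, Adra2c at -0.86, Chrm2 at -0.82, Cnr1 at -0.33, Gabbr2 at -0.29, Npy1r at 0.64 and Sstr2 at -0.54 (log2), Gabbr1 at 0.0060, and 6 genes were higher and 0 lower over all genes, with 0 receptors and 0 pathway genes called, against 1644 and 1302 genes in the main test. With the no injury libraries as the only controls 2 receptors were called lower and 0 higher; Adra2a was at 0.30, Chrm2 at -1.01, Cnr1 at -0.12, Gabbr2 at -0.35 and Npy1r at 0.81, and 703 genes were higher and 442 lower, 7 and 10 of them in the pathway lists. Scaled to the pan-neuronal list, Cnr1 was at -0.22, Sstr2 at -0.44 and Gabbr1 at 0.047, 3 receptors were lower, 2961 genes higher and 587 lower, and 22 pathway genes higher; the share of higher among all calls rose accordingly. Sstr2 was not called by DESeq2 (-0.58) or limma-voom (-0.55), and with no replicate block Cnr1 was at -0.26 and not called; the block changed no other receptor call. Without a single pool the log2 values ran from 0.58 to 0.60 for Adra2a, -0.40 to -0.27 for Cnr1, -0.46 to -0.27 for Gabbr2, -0.78 to -0.40 for Sstr2, -0.48 to -0.056 for Adora1, -0.21 to 0.014 for Gabbr1 and -0.028 to 0.33 for Npy2r. The counts then ran from 475 to 2382 genes higher and 156 to 2287 lower, 1 to 2 receptors higher and 2 to 6 lower, and 2 to 18 pathway genes higher and 3 to 35 lower, the lowest counts of all genes without day 7 and the highest without day 1. In the time trend no replicate block gave -0.028 for Adra2a and -0.015 for Npy2r, and calls over all genes were 9 higher with DESeq2's size factors, 17 and 2 scaled to the pan-neuronal list, 37 and 11 by DESeq2 and 29 and 3 with no filter, against 0 in the main test. In the contralateral comparison, with 21 genes higher and 26 lower, the counts were 188 and 184 with the no injury libraries, which share mice, entered singly, 276 and 422 with no filter and 85 and 73 by DESeq2, and ran from 13 to 447 and from 3 to 507 without a single contralateral library, the highest without day 1. Sstr2 was the 1 receptor called there, at -0.73 with the libraries entered singly, -0.75 with no filter, and between -0.75 and -0.72 (0 to 1 receptors) without a single library. Gabbr1 and Gabbr2 changed sign near 0 under the pan-neuronal scaling (-0.045 and -0.060), Gabbr2 also with no filter (-0.0012), and without a single library Gabbr2 ran from -0.021 to 0.067 and Adra2c from -0.089 to 0.042. The cause of these changes was not tested. Adra2a and Sstr2 rest on 69 to 227 reads per library, so counting error limits them most.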

Other observations

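The ratio of the sides was lowest at day 3, against days 1 and 7, for 9 of the 10 receptors, with Adra2a as the exception, and for 34.9% of all 16244 genes tested. The median log2 ratio of the 10 receptors was -0.02 at day 1, -0.56 at day 3 and -0.29 at day 7. Those of the pan-neuronal list were -0.03, -0.27 and -0.07 and those of the nociceptor list -0.05, -0.81 and -0.56. In the same pools the macrophage list stood at 0.01, 1.78 and 1.13 and the fibroblast list at 0.77, 1.67 and 0.63. The pattern was noticed in these data, each day has 1 library per side, and the part of these lists in it was not tested.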
